A study of Homo sapiens with 6 samples.

Results

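A group of 35 genes of fatty acid oxidation and of the peroxisome was examined in A498, a human line of renal cancer cells, out of 61860 genes in the deposited table. The members were fixed by name: the carnitine shuttle, the enzymes of beta-oxidation in mitochondria and in peroxisomes, the electron transfer flavoproteins, catalase, a peroxisomal transporter and 6 peroxins. Each symbol matched a single Ensembl gene, and all 35 had enough counts to be tested. The knockdown cells (PTPRZ-Si, 3 libraries) had PTPRZ1, a receptor tyrosine phosphatase, knocked down by siRNA, and the control cells of that knockdown (PTPRZ-nc, 3 libraries) are labelled with a plasmid, so the kind of nucleic acid and the knockdown cannot be told apart. All cells share the line, the medium and the treatment label, which names transfection and infection, and the labels give no time of harvest. The series title places the comparison in clear cell renal cell carcinoma and its response to kinase inhibitors and PD-1 blockade.

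Long-chain fatty acids enter mitochondria as carnitine esters and are shortened there by repeated rounds of dehydrogenation, hydration, a further dehydrogenation and thiolysis, whose electrons pass through the electron transfer flavoprotein to the respiratory chain. Peroxisomes shorten very long and branched chains with their own set of enzymes. Their first step makes hydrogen peroxide, which catalase removes, and peroxins build the organelle and import its enzymes. Proximal tubule cells, from which clear cell carcinoma is thought to arise, rely on this oxidation, whereas the carcinoma is known for stored lipid.

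Total counts per library were 14407846 to 21469746 in PTPRZ-Si and 13726908 to 18609477 in PTPRZ-nc. PTPRZ1 itself had 0 counts in every library. By counting error alone this allows at most 0.14 to 0.219 CPM (here counts scaled by the library total) in single libraries. The labels could thus not be checked by the targeted gene. All other CPM values are scaled by the totals of the tested genes, adjusted as in the test. Of 8 markers of tubule origin and of the carcinoma, LRP2 was under 1 CPM in the mean of the 6 libraries. CA9 was also low, at 2.3 to 2.736 CPM in PTPRZ-Si and 2.687 to 3.581 CPM in PTPRZ-nc. The 8 markers summed to 3150 to 3280 CPM in PTPRZ-Si and 3100 to 3140 CPM in PTPRZ-nc. The keratin gene KRT8 alone had 1307 to 1321 CPM in PTPRZ-Si and 1159 to 1240 CPM in PTPRZ-nc. Within that list PAX8, a kidney lineage factor, had 534.3 to 579.1 CPM in PTPRZ-Si and 288.9 to 328.6 CPM in PTPRZ-nc. CDH6, a cadherin of the tubule, had 151.7 to 160.1 CPM in PTPRZ-Si and 65.84 to 82.09 CPM in PTPRZ-nc. VIM, the intermediate filament vimentin, lay the other way, at 756.8 to 813.7 CPM in PTPRZ-Si and 1129 to 1220 CPM in PTPRZ-nc, so that the near-equal sums hold moves in both directions. The part of PAX8, CDH6 and VIM in the results was not tested. The summed markers of leukocytes, fibroblasts, hepatocytes and erythroid cells stayed at or under 0.526 CPM in every library, with PTPRC, CD3E, LUM, FABP1, HBB and HBA1 at 0 counts. The 4 endothelial markers summed to 1.4 to 1.63 CPM in PTPRZ-Si and 0.935 to 1.1 CPM in PTPRZ-nc, with CDH5 at 0. The labels do not say that replicates were separate cultures, so the p-values cover only how far these libraries vary, and that variation may be technical. In bulk RNA, a different level in each cell and a different share of cells cannot be told apart.

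Of the 35 members, 9 passed edgeR's quasi-likelihood test (Benjamini-Hochberg adjusted p up to 0.05), 7 lower and 2 higher in PTPRZ-Si. That is 25.7% of the members beside 27.4% of all 15476 tested genes, so members passed about as often as genes at large. Lower calls made up 20.0% of the members and 13.4% of all genes, and higher calls 5.71% of the members and 14.0% of all genes. The 7 that fell were CPT2, ACAA2, HADHB, ECHS1, DECR1, ACAA1 and EHHADH, enzymes of beta-oxidation or of carnitine ester transfer. The 2 that rose were CAT and ABCD3, catalase and a transporter of the peroxisomal membrane. The median log2 fold change was -0.08 over the members and 0.001 over all tested genes, and 27 of 35 members (77.1%) lay below 0 beside 49.8% of all genes. Groups did not overlap for 16 members, 13 lower and 3 higher, or 45.7% beside 40.8% of all genes. Without PTPRZ-Si replicate 1 the lower calls were 4, and without PTPRZ-nc replicate 1 the only higher call was CAT. Calls over all tested genes also went down in these fits, from 4243 to 3182 and to 3503.

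**Figure D1:**
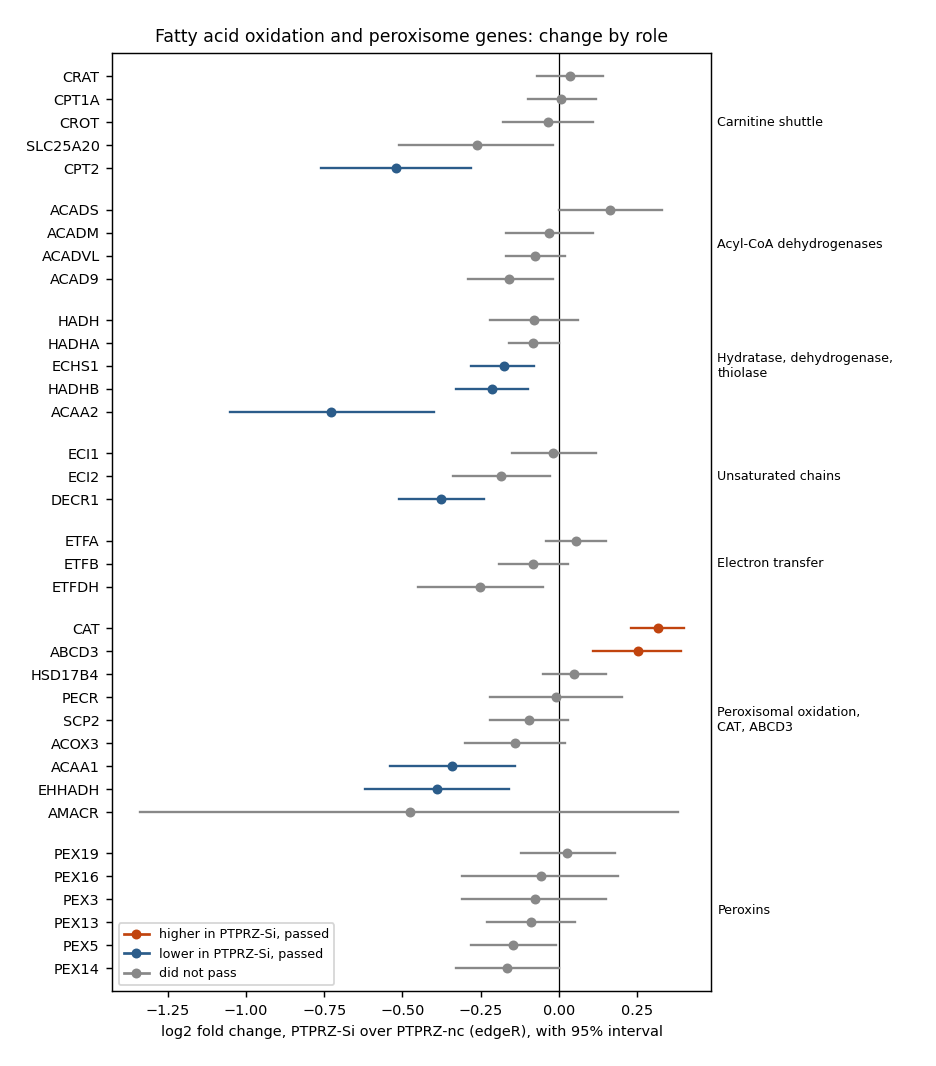
Log2 fold change of PTPRZ-Si over PTPRZ-nc for each of the 35 members, grouped by role, with its 95% interval; points are edgeR estimates from 3 libraries a group, and colour shows whether the member passed at an adjusted p of 0.05. CPT2 (-0.52) and ACAA2 (-0.73) lie farthest left among the members that passed, CAT (0.32) and ABCD3 (0.25) lie to the right, and no peroxin passed.

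Levels between members were compared as CPM per kilobase of annotated exon, a scale that depends on how many transcripts the annotation lists. On it the most abundant members over the 6 libraries were ACADVL at 94.4, ECHS1 at 87.2, CAT at 73.8, HADHA at 58.0 and ECI1 at 45.9 CPM per kilobase. The lowest were EHHADH at 2.68, CPT2 at 1.32, ACAA2 at 1.31 and AMACR at 0.15 CPM per kilobase. CPT2, ACAA2 and EHHADH, which fell, are thus among the 4 lowest on this scale, while ECHS1, which also fell, is the second highest.

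**Figure D2:**
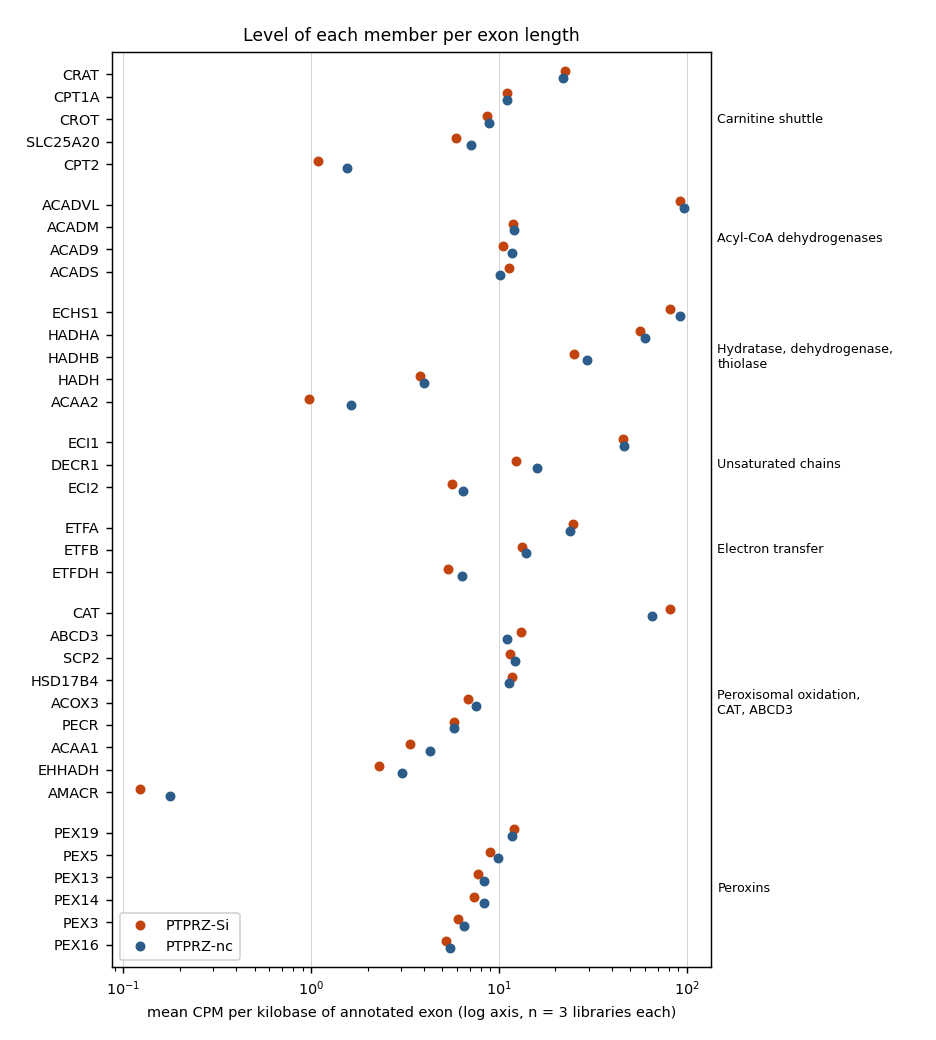
Mean CPM per kilobase of annotated exon of each member on a log axis, PTPRZ-Si and PTPRZ-nc side by side (n = 3 libraries each), grouped by role. ACADVL, ECHS1 and CAT lead with over 60 CPM per kilobase in both groups, and AMACR is lowest with 0.122 in PTPRZ-Si and 0.177 in PTPRZ-nc.

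The carnitine shuttle fell at one of its steps. CPT2, the carnitine palmitoyltransferase of the inner mitochondrial membrane that turns carnitine esters back into acyl-CoA, had 13.11, 10.03 and 10.95 CPM in PTPRZ-Si replicates 1 to 3, against 14.95, 15.86 and 17.66 CPM in PTPRZ-nc. All PTPRZ-Si libraries lay below all PTPRZ-nc libraries. CPT2 fell by 0.52 on the log2 scale (SE 0.115, edgeR adjusted p = 0.00251), and CPT2 also passed under all 14 alternative settings. CPT1A, the outer-membrane enzyme whose step limits entry into the mitochondrion, had 72.85, 71.91 and 72.7 CPM in PTPRZ-Si, against 72.84, 74.39 and 69.24 CPM in PTPRZ-nc. The groups overlapped, the log2 fold change was 0.01 with a 95% interval of -0.10 to 0.12, and no setting called it.

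The ratio of CPT1A to CPT2, in CPM within a library, was 5.56, 7.17 and 6.64 in PTPRZ-Si, against 4.87, 4.69 and 3.92 in PTPRZ-nc. It was higher in all 3 PTPRZ-Si libraries, by 0.52 on the log2 scale (exact 2-sided permutation test, p = 0.1, adjusted over 6 ratios p = 0.12). With 3 libraries a group, 0.1 is the smallest p this test can give. SLC25A20, the carnitine and acylcarnitine exchanger between both enzymes, had 11.64, 12.43 and 11.09 CPM in PTPRZ-Si, against 13.26, 16.52 and 12.7 CPM in PTPRZ-nc. Its groups did not overlap, but it did not pass (log2 fold change -0.26, SE 0.116, edgeR adjusted p = 0.106). CRAT and CROT, which make carnitine esters of short and medium chains, differed by 0.03 and -0.03 on the log2 scale and did not pass.

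The 4 acyl-CoA dehydrogenases, which open each round of mitochondrial oxidation, gave 0 calls in edgeR, in DESeq2 and in limma-voom, with 1 lower at an unadjusted p under 0.05. Over all 15476 tested genes, edgeR called 27.4%, and 5819 had an unadjusted p under 0.05 in either direction. ACADVL, for very long chains, had 445.9, 444.2 and 451.3 CPM in PTPRZ-Si, against 471.4, 503.0 and 440.4 CPM in PTPRZ-nc. The groups overlapped through PTPRZ-nc replicate 3, and without that library ACADVL passed (log2 fold change -0.13, edgeR adjusted p = 0.0408, with a range of 0.0408 to 0.713 over its alternatives). ACADM, for medium chains, differed by -0.03 on the log2 scale, and ACADS, for short chains, by 0.16. ACAD9, which also helps assemble respiratory complex I, had 44.27, 43.59 and 47.81 CPM in PTPRZ-Si, against 48.42, 51.96 and 51.32 CPM in PTPRZ-nc. Its groups did not overlap, and it did not pass (log2 fold change -0.16, SE 0.0636, edgeR adjusted p = 0.0751).

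Of the 5 enzymes of the later steps of the mitochondrial round, 3 fell and 0 rose in edgeR, in DESeq2 and in limma-voom, with 0 higher at an unadjusted p under 0.05. That is 60.0% lower beside 13.4% of all tested genes, over a list of 5, and HADHA and HADH did not pass. ACAA2, the matrix thiolase that splits off acetyl-CoA, had the largest fall among the members that passed, at 4.88, 4.512 and 5.52 CPM in PTPRZ-Si, against 7.944, 9.573 and 7.361 CPM in PTPRZ-nc. These values rest on 70, 94 and 118 counts in PTPRZ-Si and 136, 131 and 138 counts in PTPRZ-nc. The groups did not overlap, and the log2 fold change was -0.73 (SE 0.155, 95% interval -1.05 to -0.40, edgeR adjusted p = 0.00191). ECHS1, the enoyl-CoA hydratase of short chains, had 128.3, 133.0 and 135.6 CPM in PTPRZ-Si, against 148.3, 157.0 and 143.8 CPM in PTPRZ-nc. All PTPRZ-Si libraries were lower, by 0.18 on the log2 scale (log2 fold change -0.18, SE 0.0478, edgeR adjusted p = 0.0107). ECHS1 did not pass without PTPRZ-Si replicate 1 (edgeR adjusted p = 0.0659, with a range of 0.0038 to 0.0659 over its alternatives). HADH, the hydroxyacyl-CoA dehydrogenase of shorter chains, differed by -0.08 on the log2 scale and did not pass.

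HADHA and HADHB encode the alpha and beta subunits of the mitochondrial trifunctional protein, which carries out the last 3 steps on long chains. The genes lie head to head on chromosome 2, and their RefSeq starts on GRCh38.p14 are 307 bases apart. The window from 250 bases before the HADHB start to 50 bases from it, chr2:26244689-26244988 on the plus strand, is shown because most of it serves as the upstream window of either gene. Capitals mark the 194 bases that also lie in the HADHA window, chr2:26244583-26244882 on the minus strand.
HADHB promoter: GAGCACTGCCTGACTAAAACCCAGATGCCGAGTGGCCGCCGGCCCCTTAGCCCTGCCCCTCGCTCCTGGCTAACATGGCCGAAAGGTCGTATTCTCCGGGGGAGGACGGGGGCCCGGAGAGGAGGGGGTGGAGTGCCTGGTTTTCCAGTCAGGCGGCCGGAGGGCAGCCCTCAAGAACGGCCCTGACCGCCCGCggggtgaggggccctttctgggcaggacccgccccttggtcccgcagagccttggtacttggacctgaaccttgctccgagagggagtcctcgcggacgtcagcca
HADHB had 110.5, 108.0 and 105.4 CPM in PTPRZ-Si, against 115.2, 134.6 and 126.3 CPM in PTPRZ-nc. Its groups did not overlap, and it fell under all settings run (log2 fold change -0.22, SE 0.0555, edgeR adjusted p = 0.00771). HADHA had 247.2, 249.3 and 245.2 CPM in PTPRZ-Si, against 256.7, 262.8 and 265.6 CPM in PTPRZ-nc. HADHA did not overlap between the groups either, and it did not pass (log2 fold change -0.08, 95% interval -0.16 to 0.00, edgeR adjusted p = 0.139). The ratio of HADHA to HADHB in CPM was 2.24, 2.31 and 2.33 in PTPRZ-Si, against 2.23, 1.95 and 2.1 in PTPRZ-nc, a log2 difference of 0.13 (exact 2-sided permutation test, p = 0.1, adjusted p = 0.12). The lowest PTPRZ-Si ratio and the highest PTPRZ-nc ratio almost met.

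Unsaturated chains need auxiliary enzymes for the rounds to continue past a double bond. DECR1, the mitochondrial dienoyl-CoA reductase, had 45.94, 41.81 and 41.96 CPM in PTPRZ-Si, against 56.25, 58.17 and 53.93 CPM in PTPRZ-nc. The groups stood well apart, and DECR1 had the smallest p among the members that fell (log2 fold change -0.38, SE 0.0633, edgeR adjusted p = 0.000252), passing under all 14 alternatives. ECI2, an enoyl-CoA isomerase found in mitochondria and peroxisomes, had 26.77, 24.24 and 26.52 CPM in PTPRZ-Si, against 30.67, 28.5 and 28.75 CPM in PTPRZ-nc. Its groups did not overlap, but it did not pass (log2 fold change -0.18, SE 0.0753, edgeR adjusted p = 0.0811). Of its annotated exon bases 27.1% overlap those of TEX56P on the other strand. The counting ignored strand, so read pairs that match both genes are left out by default. ECI1, the mitochondrial isomerase, differed by -0.02 on the log2 scale.

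None of the 3 genes that carry the electrons onward passed, in edgeR, DESeq2 or limma-voom, and 1 was lower at an unadjusted p under 0.05. Among all 15476 tested genes, 27.4% passed in edgeR, and 5819 had an unadjusted p under 0.05 in either direction. ETFDH, the membrane oxidoreductase that hands electrons to ubiquinone, had 25.65, 23.42 and 22.92 CPM in PTPRZ-Si, against 25.35, 33.4 and 27.15 CPM in PTPRZ-nc. PTPRZ-nc replicate 2 was the highest and PTPRZ-nc replicate 1 lay inside the PTPRZ-Si range (log2 fold change -0.25, SE 0.0955, edgeR adjusted p = 0.0603). ETFDH passed under 3 of 14 alternatives, with adjusted p from 0.0245 to 0.398. ETFA and ETFB, the subunits of the flavoprotein itself, differed by 0.05 and -0.08 on the log2 scale. The ratio of ETFDH to ETFA in CPM was 0.209, 0.186 and 0.184 in PTPRZ-Si, against 0.219, 0.273 and 0.223 in PTPRZ-nc, a log2 difference of -0.30 (exact 2-sided permutation test, p = 0.1, adjusted p = 0.12). The ratio of ETFA to ETFB was 1.49, 1.47 and 1.37 in PTPRZ-Si, against 1.27, 1.34 and 1.32 in PTPRZ-nc, with the same p and adjusted p from the exact permutation test.

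**Figure D3:**
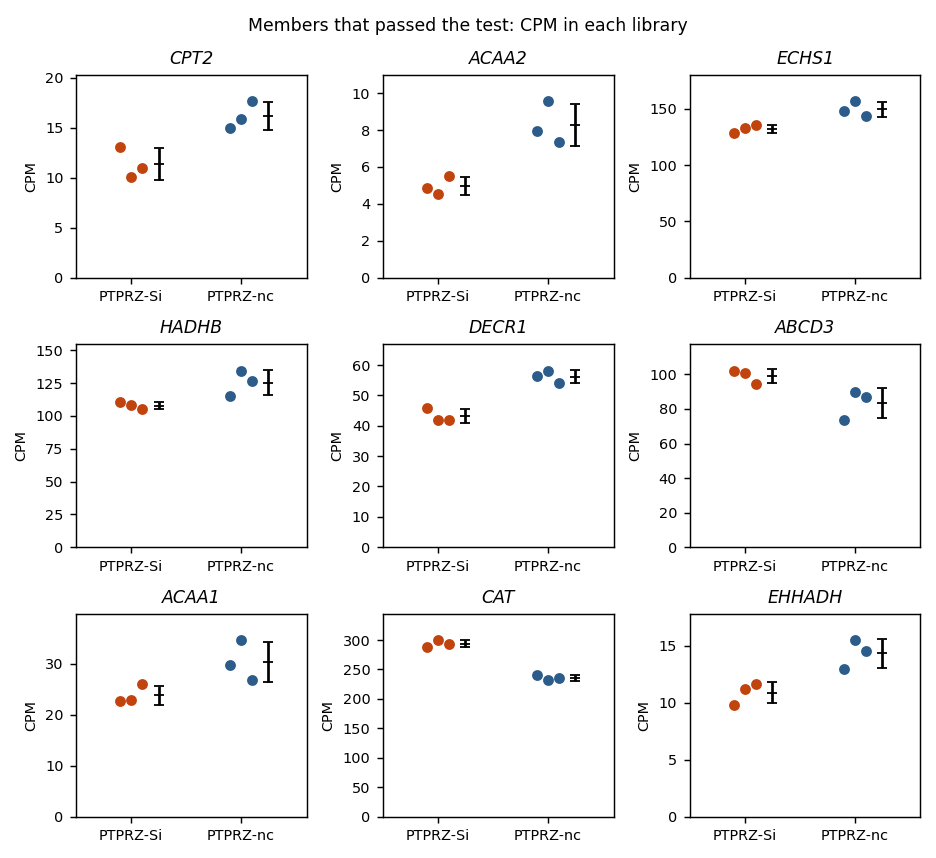
CPM in each library for the 9 members that passed, with PTPRZ-Si on the left and PTPRZ-nc on the right of each panel; points are libraries, and the bar beside them is the mean with its SD (n = 3). The groups do not overlap in any panel, CAT and ABCD3 are higher in PTPRZ-Si, and the other 7 genes are lower.

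ECI2, found in peroxisomes too, was grouped above with the auxiliary enzymes. Of the 9 members grouped as peroxisomal beta-oxidation, catalase and ABCD3, 2 rose and 2 fell. That is 22.2% in each direction, over a list of 9, beside 14.0% higher and 13.4% lower of all tested genes. The enzyme that removes hydrogen peroxide and a fatty acid transporter rose, and a pair of beta-oxidation enzymes fell. CAT, catalase, had 288.5, 299.9 and 292.9 CPM in PTPRZ-Si, against 241.0, 231.7 and 235.3 CPM in PTPRZ-nc. The lowest PTPRZ-Si library was far above the highest PTPRZ-nc library. CAT had the smallest p of all members (log2 fold change 0.32, SE 0.04, edgeR adjusted p = 1.45e-05) and passed under all 14 alternatives. Its RefSeq promoter window on GRCh38.p14, chr11:34438684-34438983 on the plus strand, from 250 bases before the start to 50 bases from it, is shown because CAT is the member with the clearest rise. Capitals mark CCAAT on either strand, which occurs 5 times.
CAT promoter: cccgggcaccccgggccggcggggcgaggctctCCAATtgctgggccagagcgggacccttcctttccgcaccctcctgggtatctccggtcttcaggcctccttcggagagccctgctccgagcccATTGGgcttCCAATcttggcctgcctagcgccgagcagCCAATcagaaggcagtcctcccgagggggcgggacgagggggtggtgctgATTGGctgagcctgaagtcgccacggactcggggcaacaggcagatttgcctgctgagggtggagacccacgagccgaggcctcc
At least 5 such boxes, the number in CAT itself, were found in 0.359% of 35116 promoter windows of the same length, and at least 1 in 34.6%. Of the 38 promoter windows of members, 10 held at least 1. This is a match of letters chosen after the values were seen, and it does not show binding.

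ABCD3, which carries branched and dicarboxylic acyl chains across the peroxisomal membrane, had 102.2, 100.6 and 94.54 CPM in PTPRZ-Si, against 73.42, 89.59 and 86.73 CPM in PTPRZ-nc. All PTPRZ-Si libraries were higher, and PTPRZ-nc replicate 1 was the lowest of all (log2 fold change 0.25, SE 0.0655, edgeR adjusted p = 0.00816). Without that library ABCD3 did not pass (log2 fold change 0.17, edgeR adjusted p = 0.0556, with a range of 0.000223 to 0.0556 over its alternatives).

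EHHADH, the L-bifunctional enzyme of the peroxisome, had 9.829, 11.18 and 11.6 CPM in PTPRZ-Si, against 12.97, 15.49 and 14.56 CPM in PTPRZ-nc. Its groups did not overlap (log2 fold change -0.39, SE 0.11, edgeR adjusted p = 0.0142), and it did not pass without PTPRZ-Si replicate 1 (edgeR adjusted p = 0.0635, with a range of 0.0107 to 0.0635 over its alternatives). HSD17B4, the D-bifunctional enzyme that carries out the same 2 steps, had 123.6, 129.4 and 122.4 CPM in PTPRZ-Si, against 117.4, 119.7 and 125.5 CPM in PTPRZ-nc, overlapped between the groups and did not pass (log2 fold change 0.05). The ratio of EHHADH to HSD17B4 in CPM was 0.0795, 0.0865 and 0.0948 in PTPRZ-Si, against 0.11, 0.129 and 0.116 in PTPRZ-nc, a log2 difference of -0.45 (exact 2-sided permutation test, p = 0.1, adjusted p = 0.12).

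ACAA1, the peroxisomal thiolase, had 22.66, 22.8 and 26.01 CPM in PTPRZ-Si, against 29.73, 34.64 and 26.88 CPM in PTPRZ-nc. PTPRZ-Si replicate 3 and PTPRZ-nc replicate 3 were close, and the log2 fold change was -0.34 (SE 0.0937, edgeR adjusted p = 0.0115). ACAA1 did not pass without PTPRZ-Si replicate 1 (edgeR adjusted p = 0.0517), without PTPRZ-Si replicate 2 (edgeR adjusted p = 0.0521) or without both replicates numbered 2 (edgeR adjusted p = 0.111), and its alternatives ranged from 0.000685 to 0.111. Of its annotated exon bases 19.7% overlap DLEC1 on the other strand, a gene with 76 counts over the 6 libraries. The other peroxisomal enzymes did not pass: ACOX3, an acyl-CoA oxidase for branched chains (log2 fold change -0.14), SCP2, a thiolase and sterol carrier (-0.10), and PECR, an enoyl-CoA reductase (-0.01). AMACR, the racemase for branched acyl-CoA, had 5, 14 and 16 counts in PTPRZ-Si and 15, 13 and 14 counts in PTPRZ-nc, and its interval of -1.34 to 0.38 on the log2 scale allows changes of either sign. Its level is also uncertain because 55.0% of its exon bases are shared with the read-through gene C1QTNF3-AMACR.

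The 6 peroxins gave 0 calls in edgeR, DESeq2 and limma-voom, with 2 lower at an unadjusted p under 0.05. For comparison, edgeR called 27.4% of all 15476 tested genes, and 5819 had an unadjusted p under 0.05 in either direction. PEX5, the receptor that brings matrix enzymes to the peroxisome, had 49.21, 47.09 and 50.66 CPM in PTPRZ-Si, against 53.27, 57.88 and 51.96 CPM in PTPRZ-nc. PEX14, the docking site for PEX5 on the membrane, had 22.73, 21.22 and 22.64 CPM in PTPRZ-Si, against 25.53, 24.63 and 24.43 CPM in PTPRZ-nc. Neither gene overlapped between the groups, and neither passed (log2 fold changes -0.15 and -0.17, edgeR adjusted p = 0.0953 and 0.126). The ratio of PEX5 to PEX14 in CPM was 2.17, 2.22 and 2.24 in PTPRZ-Si, against 2.09, 2.35 and 2.13 in PTPRZ-nc (exact 2-sided permutation test, p = 0.9). PEX13, another part of the docking complex, PEX3, PEX16 and PEX19, which insert membrane proteins, lay between -0.09 and 0.03 on the log2 scale. Of 10 further peroxins 9 were tested, with 0 calls in the same 3 tools, 2 lower and 0 higher at an unadjusted p under 0.05, and a median log2 fold change of -0.13. Without PTPRZ-Si replicate 2, without PTPRZ-nc replicate 1, or without both replicates numbered 2, 1 of them was lower. PEX2, a ubiquitin ligase of the import machinery, differed by -0.13 on the log2 scale (SE 0.0706, edgeR adjusted p = 0.193).

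Across libraries, the members' summed level was 2680, 2696 and 2682 CPM in PTPRZ-Si, against 2704, 2853 and 2700 CPM in PTPRZ-nc. PTPRZ-nc replicate 2, which has the lowest total count, held the highest value of the 6 libraries for 18 of the 35 members. Its part in the results was read from the fit without it, which gave 7 lower and 2 higher members and a median log2 fold change of -0.084. Members grouped as peroxisomal beta-oxidation, catalase and ABCD3 (9 genes) summed to 693.2, 706.7 and 678.9 CPM in PTPRZ-Si. In PTPRZ-nc the sums were 621.4, 640.4 and 641.2 CPM, and CAT alone holds most of that difference. The hydratase, dehydrogenase and thiolase genes summed to 533.6, 542.7 and 538.0 CPM in PTPRZ-Si, against 578.5, 611.6 and 590.1 CPM in PTPRZ-nc. Within a group the members' median coefficient of variation was 5.02% in PTPRZ-Si and 6.11% in PTPRZ-nc.

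**Figure D4:**
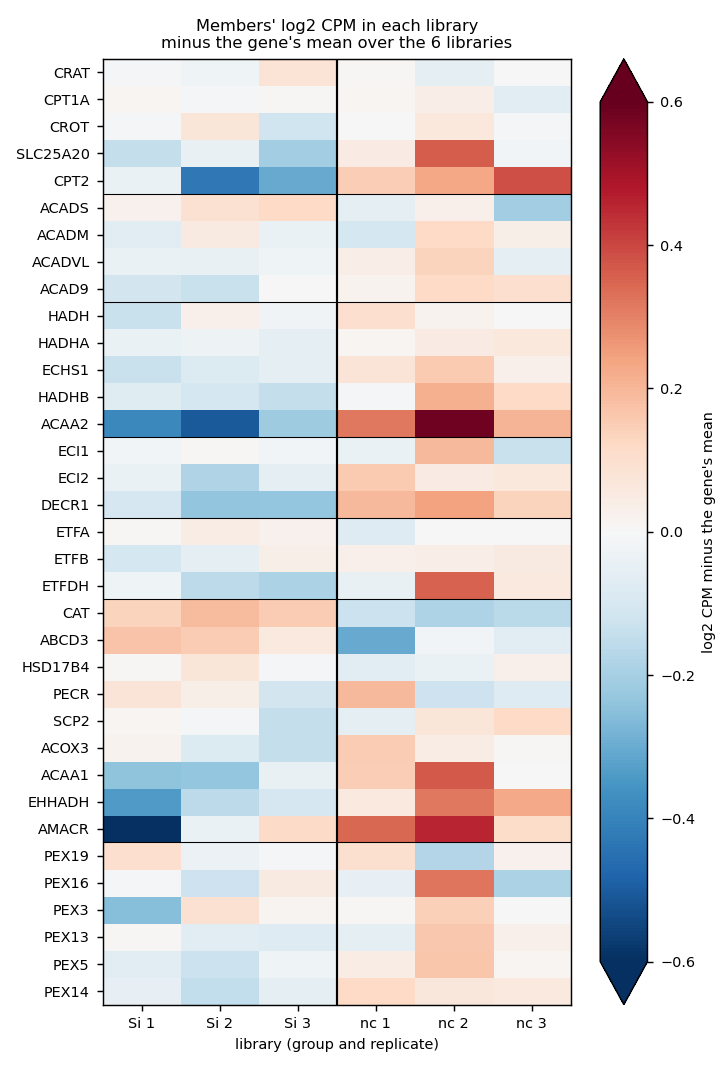
Log2 CPM of each member in each library minus that gene's mean over the 6 libraries, PTPRZ-Si (Si) left of PTPRZ-nc (nc), with lines between roles; the colour scale ends at 0.6 in either direction, which AMACR passes in PTPRZ-Si replicate 1. CAT and ABCD3 are red on the left, CPT2, ACAA2, DECR1 and EHHADH are blue on the left, and PTPRZ-nc replicate 2 holds the highest value for 18 members.

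Regulators of this pathway were higher where they passed. Of 16 tested regulators around the PPAR receptors and their coactivator PGC-1, 7 rose and 0 fell (43.8% higher beside 14.0% of all genes, median log2 fold change 0.21). DESeq2 and limma-voom also called 7 higher and 0 lower, and 9 were higher and 1 lower at an unadjusted p under 0.05. Without both replicates numbered 2 there were 8 higher and 1 lower. PPARD, a fatty acid receptor, had 69.85, 68.35 and 69.33 CPM in PTPRZ-Si, against 42.64, 41.29 and 47.15 CPM in PTPRZ-nc (log2 fold change 0.66, SE 0.0618, edgeR adjusted p = 4.98e-07). PPARA, the receptor best known for driving beta-oxidation genes in liver, had 85.11, 83.28 and 84.16 CPM in PTPRZ-Si, against 72.02, 69.42 and 71.53 CPM in PTPRZ-nc (log2 fold change 0.24, edgeR adjusted p = 0.00138). For both receptors the groups did not overlap.

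RXRA, the partner with which PPAR receptors bind DNA, rose by 0.35 on the log2 scale (SE 0.0406, edgeR adjusted p = 4.95e-06), and SIRT1, a deacetylase that acts on PGC-1, by 0.36 (SE 0.0679, edgeR adjusted p = 0.000719). PPARGC1A, which encodes PGC-1 alpha, was low, at 2.997, 3.408 and 3.509 CPM in PTPRZ-Si, against 1.752, 0.8038 and 1.014 CPM in PTPRZ-nc. The groups stood apart, and PPARGC1A rose by 1.46 on the log2 scale (SE 0.279, edgeR adjusted p = 0.000827). The letters AGGTCANAGGTCA, an idealised PPAR element, were searched on both strands of the 38 RefSeq promoter windows of the 29 members that have one. They occurred in 0 of the 38 windows and in 0.0228% of all 35116, which says only that these letters are not in those 300 bases. TCAAGGTCA, bound by the estrogen-related receptors, occurred in 0 of the 38 windows and 0.353% of all. TGACGTCA, the cyclic AMP element, occurred in 3 windows, of ACAD9 and ACOX3, and 1.85% of all. GGGCGG, the GC box, occurred in 30 of the 38 windows and 45.0% of all. Several windows can belong to the same member, and binding was not tested.

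Of 14 listed PPAR target genes outside the members, 9 were tested, of which 4 fell and 1 rose (median log2 fold change -0.26). Lower calls made up 44.4% of the 9 beside 13.4% of all genes, and higher calls 11.1% beside 14.0%. Without PTPRZ-nc replicate 2, and without both replicates numbered 2, 2 of them rose. ANGPTL4, a secreted inhibitor of lipoprotein lipase, had 106.0, 105.3 and 111.9 CPM in PTPRZ-Si, against 233.9, 231.3 and 211.3 CPM in PTPRZ-nc (log2 fold change -1.06, SE 0.05, edgeR adjusted p = 1.86e-10). TXNIP, which restrains glucose uptake, averaged 50.78 ± 2.44 CPM in PTPRZ-Si and 93.73 ± 2.36 CPM in PTPRZ-nc (SD, n = 3 each, edgeR adjusted p = 3.55e-09). The lipid droplet protein gene PLIN2 fell as well (log2 fold change -0.26). The fourth that fell, HILPDA, an inhibitor of lipolysis at the lipid droplet, had 11.43, 9.456 and 10.62 CPM in PTPRZ-Si, against 19.16, 13.88 and 16.86 CPM in PTPRZ-nc (log2 fold change -0.68, edgeR adjusted p = 0.000502), and was named after its values were seen. The 1 that rose was ACSL1, described next. ANGPTL4, TXNIP, PLIN2 and HILPDA passed under all 14 alternatives.

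Genes that prepare fatty acids for oxidation or for lipid synthesis were higher where they passed: of 10 tested acyl-CoA synthetase and uptake genes 4 rose and 0 fell, and 1 was lower at an unadjusted p under 0.05. Higher calls made up 40.0% of the 10 beside 14.0% of all genes. DESeq2 and limma-voom gave the same 4 and 0. ACSL1, a long-chain acyl-CoA synthetase, averaged 299.9 ± 3.63 CPM in PTPRZ-Si and 204.4 ± 6.74 CPM in PTPRZ-nc (SD, n = 3 each, edgeR adjusted p = 3.54e-08). DBI, the acyl-CoA binding protein, had 144.0, 160.7 and 138.7 CPM in PTPRZ-Si, against 119.0, 101.1 and 114.3 CPM in PTPRZ-nc. Its groups did not overlap (log2 fold change 0.40, SE 0.0636, edgeR adjusted p = 0.000137). The synthetases ACSL3 and ACSL4 rose by 0.21 and 0.18 on the log2 scale, and ACSL4 did not pass without PTPRZ-nc replicate 1 (edgeR adjusted p = 0.0519, the highest of its alternatives).

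Other peroxisomal proteins moved in both directions. Of 26 tested, 5 rose and 4 fell, with a median log2 fold change of 0.00. That is 19.2% higher beside 14.0% of all genes and 15.4% lower beside 13.4%. Lower calls numbered 2 in DESeq2 and 0 to 5 when 1 library was left out, with 0 without PTPRZ-nc replicate 3, 1 without PTPRZ-Si replicate 2 or 3 and 2 without PTPRZ-Si replicate 1. ACBD5, which tethers peroxisomes to the endoplasmic reticulum, had 98.43, 101.9 and 98.33 CPM in PTPRZ-Si, against 63.32, 61.9 and 63.48 CPM in PTPRZ-nc. It was 1.58-fold higher, with groups far apart (log2 fold change 0.66, SE 0.0498, edgeR adjusted p = 3.78e-08). IDH1, an NADP-dependent dehydrogenase of cytosol and peroxisome, rose by 0.34 on the log2 scale, and TYSND1, the protease that processes peroxisomal oxidation enzymes, by 0.34. The 4 that fell, named after their values were seen, were the membrane protein gene PXMP4 (log2 fold change -0.43), HACL1, a lyase of alpha-oxidation (-0.23), MVK, mevalonate kinase (-0.27), and LONP2, a matrix protease (-0.14). They passed under 12 of 14 alternatives for PXMP4, 11 for HACL1, 5 for MVK and 6 for LONP2.

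Of 21 other tested genes of mitochondrial fatty acid and acyl-CoA oxidation, 2 rose and 4 fell, or 28.6% called beside 27.4% of all tested genes. DESeq2 called 1 lower, and leaving out any 1 library gave 1 or 2 lower, with 1 without PTPRZ-Si replicate 1. SLC22A5, the plasma membrane carnitine transporter, averaged 33.88 ± 1.24 CPM in PTPRZ-Si and 39.48 ± 2.26 CPM in PTPRZ-nc (SD, n = 3 each, edgeR adjusted p = 0.0235). It passed under 9 of 14 alternatives, with adjusted p from 0.00436 to 0.114, and did not pass in DESeq2 or without replicate 1 or 3 of either group. The 2 that rose were PCCA, a subunit of propionyl-CoA carboxylase (log2 fold change 0.55, SE 0.0917), and the acyl-CoA synthetase ACSF2 (0.39, SE 0.0589), both under all 14 alternatives.

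**Figure D5:**
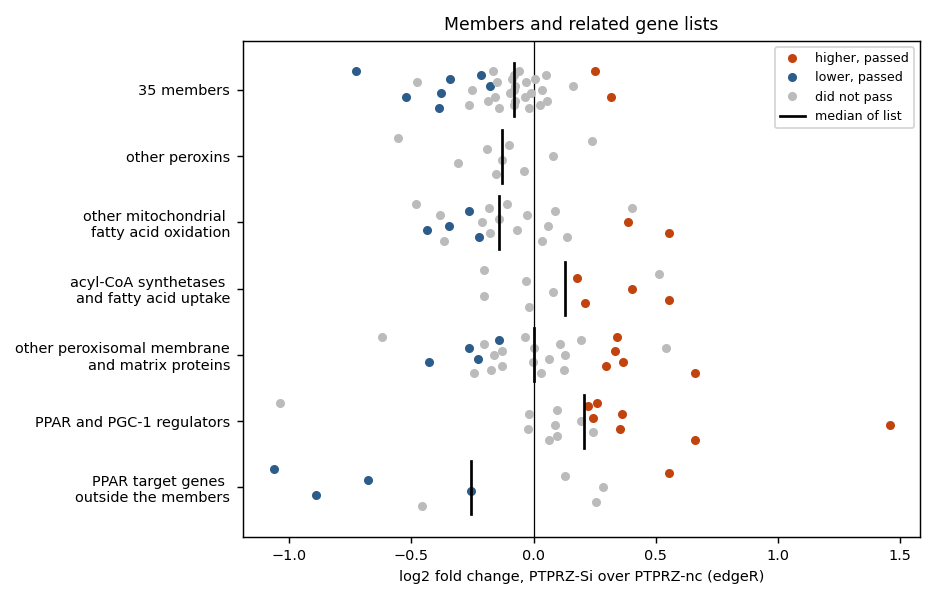
Log2 fold change of PTPRZ-Si over PTPRZ-nc for the 35 members and for the tested genes of 6 related lists; each point is a gene, colour shows whether it passed at an adjusted p of 0.05, and the black line is the list's median. Members have a median of -0.08, the PPAR and PGC-1 regulators one of 0.21 and the PPAR target genes one of -0.26.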

How the data were processed

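RNA from 6 libraries of A498 cells was compared, 3 of PTPRZ-Si and 3 of PTPRZ-nc, grouped by the sample titles. The authors deposited raw counts per gene, made per the file headers with featureCounts 2.0.1 in paired mode over the exons of Ensembl GRCh38 release 107. The header sets no strand option, so counting ignored strand, and no option for read pairs that match several genes or places, which are left out by default. The alignment file names contain hisat, with no version of the aligner among the sources used here.

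Genes were filtered with filterByExpr (15476 tested, 99.82% of counts), scaled by TMM and tested with edgeR 4.0.16 glmQLFit and glmQLFTest (R 4.3.3), 2-sided, with Benjamini-Hochberg adjustment over all tested genes and a threshold of 0.05. SE is the size of the log2 fold change divided by the root of F, and intervals are 95%. The edgeR steps were also run on simulated counts with the same dispersion for all genes. That setting is simpler than these data, so the run does not measure false calls here. Alternatives used DESeq2 1.42.0, limma 3.58.1, other scalings and filters, and fits without single libraries. Exon lengths and overlaps come from GENCODE 29 and promoters from RefSeq (GRCh38.p14). In all, 20 members share exon bases with another annotated gene, 8 of them at least 10%. All members are named; the 4 called genes with the smallest p of each related list are named, with PPARA, PPARGC1A and PEX2; some genes that this rule names are not reported here. Members, lists and motifs were chosen with earlier results of these data known.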

Additional observations from a re-analysis of the deposited data

How the results depend on the processing

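Of the 9 members called, CPT2, ACAA2, HADHB, DECR1 and CAT passed in edgeR, DESeq2 and limma-voom, under the other scalings and filters, in each fit without 1 library, in the fit without both replicates numbered 2 and in the replicate block. Members called ranged from 6 to 10 over the fits that left out 1 library, with 1 or 2 higher and 4 to 8 lower. Over all tested genes the same fits called 3182 to 4425, beside 4243 in the full set. Scaling by library size alone, and no filter on low counts, each gave 10, with ETFDH added. The median log2 fold change of the members lay between -0.117 and -0.084 without 1 library. Without 1 library, 24 to 33 pathway genes outside the members were called. The full set called 30 of 89 tested (33.7%), beside 27.4% of all tested genes. The log2 differences of the ratios without 1 library were 0.08 to 0.18 for HADHA to HADHB, 0.12 to 0.18 for ETFA to ETFB, -0.36 to -0.20 for ETFDH to ETFA, 0.43 to 0.62 for CPT1A to CPT2, -0.51 to -0.38 for EHHADH to HSD17B4 and -0.02 to 0.07 for PEX5 to PEX14. Over the members' alternatives 478 kept their side of the threshold, 6 lost the call and 4 gained it; the cause was not tested. No called member changed sign, and 9 uncalled members, all within 0.077 of 0 on the log2 scale, did so under at least 1 alternative. The sample titles give replicate numbers but do not say whether they pair the samples. The deviations of same-numbered libraries correlated at 0.0226 to 0.0333, each library best with its own number. Those of differently numbered libraries correlated at -0.0234 to -0.00517. With the replicate block 9 members were called, 7 lower and 2 higher, with 27 pathway genes and 4101 genes in all. Depth limits AMACR, with 5 to 16 counts per library.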
